A study of Mus musculus with 24 samples.

Results

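The ATF4 stress response and the serine synthesis pathway were followed through 10 genes, taken by symbol from the 26995 genes in the deposited tables: Atf4, Atf3, Ddit3, Trib3, Ddit4, Chac1, Asns, Phgdh, Psat1 and Shmt2. A gene with several 3′UTR entries was represented by the one that held the most total reads on average across the 24 libraries. Of these 10 genes, 10 passed the filter on low counts in total reads and 9 did so in labelled reads, where Phgdh was too low. The libraries came from 3T3-L1 cells, a clonal mouse pre-adipocyte line that differentiates into adipocytes in a hormone cocktail, cultured in DMSO or in 0.5 μM ML-792, an inhibitor of the SUMO-activating enzyme. Cells were collected at day −2, before induction, and at days 1, 3 and 7 after it, with 3 replicates named A, B and C for each of the 8 conditions. New RNA was labelled with 4-thiouridine (100 μM, 45 min) in every condition, so each library gave total reads (QuantSeq) and labelled reads, which carry a T to C conversion (SLAMseq).

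All groups were of this 1 line. At induction calf serum was replaced by fetal bovine serum, and the differentiation medium added dexamethasone, isobutylmethylxanthine and insulin. It was exchanged at day 3 for a medium that kept only the insulin of these 3. Day, medium and stage of differentiation therefore cannot be told apart. The study's layout has ML-792 in the medium from day −2 on, but how long it had been present at the harvest of that day is not given in the sources used here. The libraries held 13554718 to 27013352 total reads and 115709 to 820046 labelled reads. The summed normalised counts of 7 adipocyte markers rose in DMSO from between 21981 and 23544 at day −2 to between 669297 and 780912 at day 7. Lpl weighed most on the sum at day −2, with at least 23345 reads in every library. The lowest count of each other adipocyte marker was at most 919. Of 14 markers of leukocytes, endothelium, muscle and epithelium, Ptprc and Epcam had 0 reads in all libraries, Cd68 had 15 to 121, Des 4 to 481, Csf1r at most 79 and Lyz2 at most 31, and none of the other 8 exceeded 21. In bulk RNA, fewer cells of a type and less RNA per cell cannot be told apart.

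ATF4 is a basic leucine zipper transcription factor whose mRNA is preferentially translated when the initiation factor eIF2 is phosphorylated, as happens under amino acid shortage, endoplasmic reticulum stress, haem shortage or viral infection. It binds composite C/EBP-ATF elements, often with a C/EBP partner, and turns on genes for amino acid uptake, amino acid synthesis and tRNA charging together with the stress regulators ATF3, CHOP (encoded by Ddit3) and TRIB3. Because ATF4 activity is set largely by translation, the level of its own mRNA is a poor measure of it, and no protein was measured here.

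The promoters of the genes were searched for the C/EBP-ATF response element TGATGNAA, on both strands, because it is the DNA sequence that ATF4 is best known to read. The windows ran from 250 bases before to 50 bases after each RefSeq start site on GRCm38.p6, and 11 windows were found for the 10 genes. The element lay in 4 of 10 genes, namely Atf3, Trib3, Asns and Chac1, against 1304 of 32851 windows of all promoters (3.969%) and 284 of the 9956 genes tested in total reads with a window (2.85%). The AP-1 site TGANTCA, which does not overlap the element, was found in Ddit3 and in 7.808% of all windows, while the cyclic AMP response element TGACGTCA (1.790% of all windows) and the E-box CACGTG (7.150%) were found in none of the 11. The matched letters are in capitals below, each read 5′ to 3′ on the strand of its gene. The element is on the reverse strand in Atf3, Trib3 and Chac1 and on the forward strand in Asns.
Atf3, chr1:191183425-191183454, minus strand: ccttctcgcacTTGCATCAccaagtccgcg
Trib3, chr2:152344028-152344057, minus strand: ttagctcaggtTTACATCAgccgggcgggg
Asns, chr6:7693214-7693243, minus strand: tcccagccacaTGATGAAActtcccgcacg
Chac1, chr2:119351038-119351067, plus strand: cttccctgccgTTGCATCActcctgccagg
Ddit3 (AP-1 site), chr10:127290543-127290568, plus strand: cgcgcgcaTGACTCActcacctcctc

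The 4 elements differ in their place. The first base of the match lay 193 bases upstream of the start site in Chac1, 110 upstream in Atf3 and 23 upstream in Asns, whereas in Trib3 it lay 14 bases downstream of it. A match is a description of letters, and a window without one says nothing of elements elsewhere in the gene. Among the related gene lists, the element was in 5 of 8 tRNA synthetases known as ATF4 targets, in 0 of 5 other cytosolic synthetases and in 2 of 6 amino acid transporters. It was in 1 of 8 further enzymes, mostly of serine, one-carbon and proline synthesis, that had a window.

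The reads were counted on 3′UTRs (mm10), at chr15:80257461-80257545 for Atf4, chr1:191170296-191171481 for Atf3, chr10:127296092-127296288 for Ddit3, chr2:152337425-152338206 for Trib3 and chr10:59949675-59950535 for Ddit4. Those of the enzymes were chr2:119353591-119354326 for Chac1, chr6:7675165-7675314 for Asns, chr3:98313171-98313302 for Phgdh, chr19:15905123-15906045 for Psat1 and chr10:127517123-127517788 for Shmt2. Each 3′UTR was cut into all its stretches of 24 bases and searched in the genome, as a guide to reads that could come from copies. These stretches are shorter than the reads, so the shares do not measure how many reads could not be placed. For Phgdh all 109 of 109 stretches occurred elsewhere on the chromosomes, at a median of 5 sites, which limits every value of this gene. The share was 14.4% for Psat1 and 8.09% for Shmt2 and at most 0.477% for the other 7 genes.

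In DMSO most of the stress genes were high before induction, low at day 1 and higher again by day 3 or day 7. From day −2 to day 1 the total reads of 7 of 10 genes fell at an adjusted p under 0.01 (edgeR's quasi-likelihood test with Benjamini-Hochberg adjustment), against 9.86% of all 13331 genes tested. From day 1 to day 3, 7 of 10 rose, against 11.3% of all genes, and these were the same 7: Atf4, Atf3, Ddit3, Trib3, Asns, Chac1 and Psat1. The median log2 fold change of the 10 genes was −1.61 in the first step and 1.41 in the second, and over all genes it was 0.00 and −0.02. Without replicate A or without replicate C, 4 genes were called in each step. The shares of all genes were then 2.55% and 4.17% in the first step and 4.23% and 5.48% in the second. The 3 genes that lost the call were Atf4, Asns and Psat1 in the first and Atf4, Atf3 and Ddit3 in the second.

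**Figure D1:**
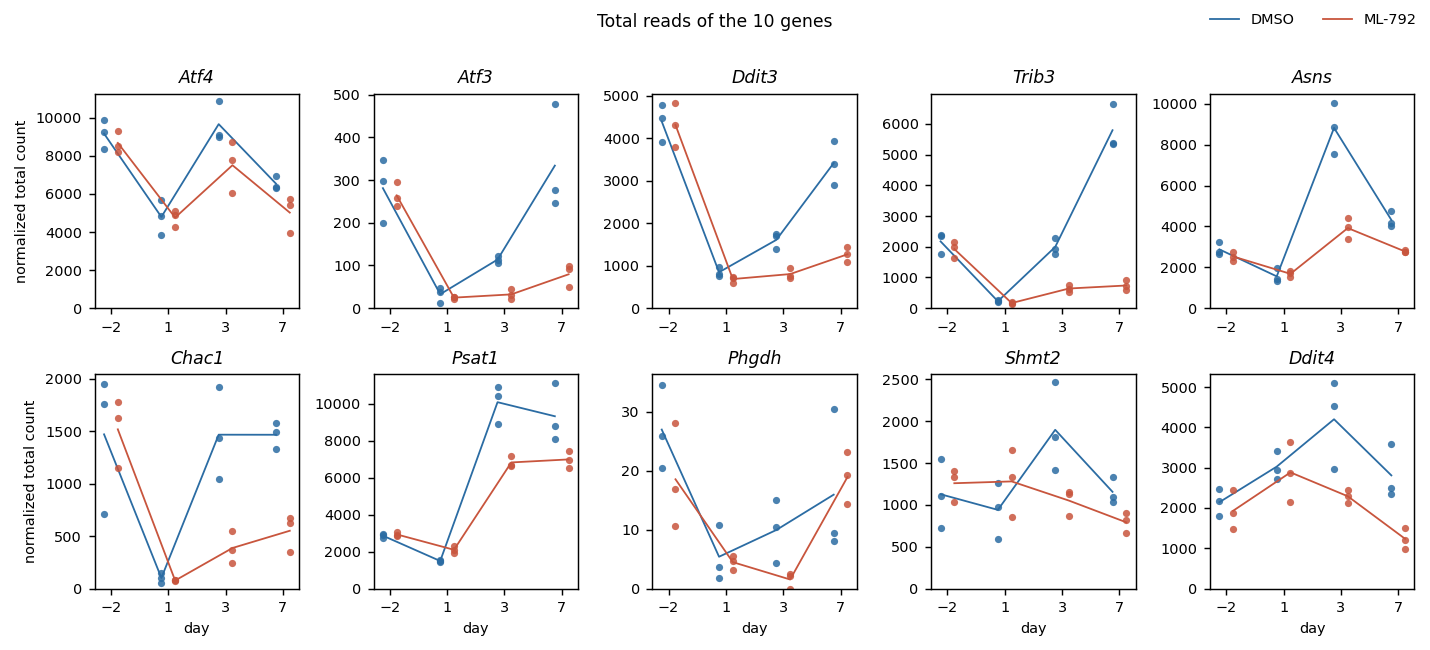
Normalised total counts (vertical axes, linear and starting at 0) of the 10 genes at days −2, 1, 3 and 7 in DMSO (blue) and ML-792 (red). Points are libraries and lines join the means of 3. Trib3 reached 5347 to 6648 at day 7 in DMSO and 579 to 903 in ML-792, whereas the libraries of both treatments overlap for all 10 genes at day −2.

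Among the transcription factors, Atf4 changed least. Its normalised total counts in DMSO were 9233, 9897 and 8386 at day −2 (replicates A, B and C, an order kept throughout), 4816, 5694 and 3868 at day 1, 9119, 10902 and 8992 at day 3 and 6946, 6344 and 6328 at day 7. All libraries of day 1 were below those of the other days. Day 1 differed from day −2 by −0.94 ± 0.17 on the log2 scale (SE, adjusted p = 9.9e-04), and day 3 from day 1 by 1.01 ± 0.17 (adjusted p = 3.5e-04).

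Ddit3, which encodes the stress factor CHOP, had 4479, 3913 and 4785 counts at day −2, 806, 767 and 958 at day 1, 1383, 1739 and 1695 at day 3 and 2903, 3393 and 3938 at day 7. Its days 1 and 3 were apart from each other and from both outer days, and the level fell 5.20-fold at day 1 (adjusted p = 2.6e-07). It was one of the genes that had not returned by day 3, with a log2 fold change of −1.45 ± 0.18 against day −2 (adjusted p = 6.9e-06), the 1 gene of 10 called lower there against 19.4% of all genes. Atf3, a stress-induced repressor and activator of the same factor family, was the lowest of the regulators in reads, with 297, 199 and 348 counts at day −2, 47.8, 11.8 and 37.9 at day 1, 106, 122 and 113 at day 3 and 276, 247 and 479 at day 7. The days −2 and 7 overlapped, while days 1 and 3 were each apart, and day 1 differed from day −2 by −3.11 ± 0.41 on the log2 scale (adjusted p = 5.0e-05).

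Trib3 encodes a pseudokinase that binds AKT and ATF4 and is itself an ATF4 target. It had 2364, 1764 and 2392 counts at day −2, 186, 224 and 258 at day 1, 1923, 1758 and 2297 at day 3 and 5390.4, 5347 and 6648 at day 7. Days −2 and 3 overlapped, day 1 was far below them and day 7 above every other day. The fall at day 1 was 9.75-fold (adjusted p = 3.8e-08), and day 7 was 2.67-fold above day −2 (adjusted p = 1.6e-05).

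Chac1, an enzyme that breaks down glutathione, followed the same course to day 3. It had 1757, 708 and 1948 counts at day −2, 99.3, 55.6 and 148 at day 1, 1440.0, 1043 and 1919.8 at day 3 and 1496, 1329 and 1576 at day 7. The fall and the return were both 14.5-fold, the largest steps of the 10 genes (adjusted p = 4.7e-06 and 2.6e-06), and days −2, 3 and 7 overlapped.

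Asns and Psat1 rose above their starting level at day 3. Asns, asparagine synthetase, had 2741, 3245 and 2636 counts at day −2, 1309, 1950.2 and 1400.5 at day 1, 7550.2, 10040.4 and 8870.2 at day 3 and 4014, 4767 and 4162 at day 7. Psat1, the aminotransferase of the serine pathway, had 2918, 2953 and 2719 counts at day −2, 1487, 1561 and 1426 at day 1, 8930.1, 10422 and 10922 at day 3 and 8074, 11108 and 8806 at day 7. For both, every library of day 3 exceeded every library of day −2. Day 3 was 3.07-fold above day −2 for Asns (adjusted p = 5.2e-06) and 3.52-fold for Psat1 (adjusted p = 4.0e-07). With Ddit4 these were the 3 genes of 10 called higher at day 3 than at day −2, against 16.6% of all genes, and Trib3 and Psat1 were the 2 called higher at day 7 than at day −2, against 18.9%. Between day 3 and day 7, Atf3, Ddit3 and Trib3 rose, 3 of 10 against 6.54% of all genes, and Asns fell by 1.03 ± 0.19 on the log2 scale (adjusted p = 0.0013), 1 of 10 against 4.34%. The rise of Atf3 had an adjusted p of 0.0099. The rises of this step numbered 0 without replicate A and 1 without replicate C, against 1.36% and 2.26% of all genes, while the fall of Asns was lost without either.

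Ddit4, Shmt2 and Phgdh were not called in either of the first 2 steps. Ddit4, which encodes an inhibitor of mTORC1 and is known to respond to glucocorticoids as well as to ATF4, had 1804, 2465 and 2162 counts at day −2, 2724, 3425 and 2930.4 at day 1, 2965, 4533 and 5108 at day 3 and 2487, 2343 and 3598 at day 7. Its libraries of day 1 lay above those of day −2, with a log2 fold change of 0.50 ± 0.22 that missed the threshold (adjusted p = 0.13), and day 3 was 1.96-fold above day −2 (adjusted p = 0.0025). Shmt2, the mitochondrial serine hydroxymethyltransferase, ranged from 588 to 2466 counts over the 12 DMSO libraries, and its largest step, 1.01 ± 0.30 from day 1 to day 3, had an adjusted p of 0.018. Phgdh, the first enzyme of serine synthesis, had 25, 29 and 39 reads at day −2, 2, 4 and 13 at day 1, 4, 9 and 13 at day 3 and 27, 9 and 7 at day 7, and no comparison of days in DMSO passed the threshold.

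Most of the 10 genes were lower in ML-792 than in DMSO at days 3 and 7, whereas at days −2 and 1 none was called lower in total reads. At day −2, 0 of 10 genes differed between ML-792 and DMSO at an adjusted p under 0.1 by edgeR, as did 0 of 13331 genes (0%). At an unadjusted p under 0.05 there were 184 genes and 0 of the 10, and DESeq2 called 0 genes. The log2 fold changes of the 10 genes lay between −0.53 ± 0.63 (Phgdh) and 0.16 ± 0.28 (Shmt2). At day 1 the 1 gene called was Psat1, higher in ML-792 by 0.49 ± 0.13 (adjusted p = 0.030), against 3.72% of all genes called higher. It was not called in a fit of the 6 libraries of that day, without the filter on low counts, or without replicate A or C.

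At day 3, 9 of 10 genes were lower in ML-792, against 6.97% of all genes, and at day 7 it was 7 of 10 against 5.58%. The median log2 fold change of the 10 genes was −1.09 at day 3 and −0.91 at day 7, where that of all genes was 0.02 and 0.00. Calls depended on the replicates kept. Without replicate A, B or C, 6, 8 and 5 genes were called at day 3 and 4, 6 and 5 at day 7, while the share of all genes called lower was 2.44%, 8.59% and 3.27% at day 3 and 1.73%, 6.81% and 1.73% at day 7. Every called gene kept its direction in each of these fits.

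**Figure D2:**
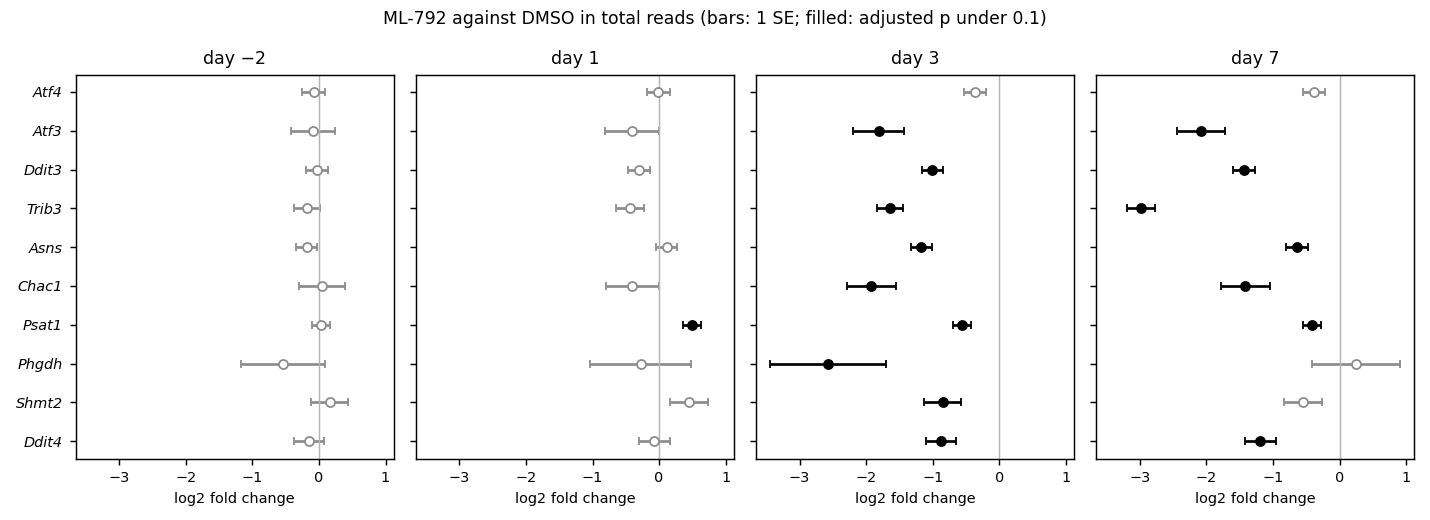
Log2 fold change of ML-792 against DMSO in total reads (horizontal axes) for the 10 genes at each day, with bars of 1 SE from edgeR and filled points at an adjusted p under 0.1. Of the 10 points of a panel, 0 are filled at day −2 and 1 at day 1, whereas 9 are filled at day 3 and 7 at day 7, all left of 0 on these last days.

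Trib3 showed the largest call. Its normalised total counts in ML-792 were 1995, 1627 and 2150.1 at day −2, 158, 130.3 and 204 at day 1, 619.6, 531 and 765 at day 3 and 903, 579 and 728 at day 7. The ML-792 libraries overlapped those in DMSO at days −2 and 1 and lay below all of them at days 3 and 7. The difference was 3.12-fold at day 3 (log2 −1.64 ± 0.20, adjusted p = 3.7e-06) and 7.86-fold at day 7 (log2 −2.98 ± 0.21, adjusted p = 2.2e-09), the smallest adjusted p of the 10 genes.

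Ddit3, Atf3 and Chac1 were lower on both days. Ddit3 in ML-792 had 4306, 3796 and 4825 counts at day −2, 719, 598 and 734 at day 1, 936, 710.5 and 755 at day 3 and 1431, 1095 and 1272 at day 7. It was below all DMSO libraries from day 1 on, with an adjusted p of 0.41 at day 1, a 2.00-fold difference at day 3 (adjusted p = 1.4e-04) and a 2.69-fold difference at day 7 (adjusted p = 2.2e-06). Atf3 had 296, 239.7 and 257 counts at day −2, 25.7, 25.6 and 22.4 at day 1, 44.6, 20.3 and 31.7 at day 3 and 90.5, 48.9 and 98.3 at day 7. The groups were apart at days 3 and 7, by 3.50-fold (adjusted p = 0.0023) and 4.21-fold (adjusted p = 4.9e-04). Chac1 had 1627, 1146 and 1783 counts at day −2, 68.5, 79.1 and 82.0 at day 1, 366, 242 and 552 at day 3 and 629, 351 and 673 at day 7. It too was below all DMSO libraries at days 3 and 7, by 3.79-fold (adjusted p = 0.0011) and 2.66-fold (adjusted p = 0.017), and the call at day 7 was lost without replicate A.

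Ddit4 in ML-792 had 1867, 1487 and 2439 counts at day −2, 2871, 2143 and 3637 at day 1, 2449, 2114 and 2309 at day 3 and 1206, 984 and 1512 at day 7. The highest ML-792 library was below the lowest DMSO library at days 3 and 7. The difference was 1.83-fold at day 3 (adjusted p = 0.015), a call lost without replicate C, and 2.28-fold at day 7 (adjusted p = 0.0017).

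The mRNA of Atf4 itself was not called in the fit without a replicate block. It had 9323, 8215 and 8513 counts at day −2 in ML-792, 5079, 4918 and 4283 at day 1, 8716, 7775 and 6043 at day 3 and 5733, 5399 and 3931 at day 7. All ML-792 libraries were below all DMSO libraries at days 3 and 7, but the log2 differences, −0.36 ± 0.17 and −0.38 ± 0.17, had an adjusted p of 0.22 at both.

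Of the enzymes, Asns in ML-792 had 2320.0, 2501 and 2758 counts at day −2, 1507, 1709 and 1815 at day 1, 3384, 4415 and 3954 at day 3 and 2838, 2725 and 2745 at day 7. It was 2.25-fold below DMSO at day 3 (adjusted p = 1.7e-05) and 1.56-fold at day 7 (adjusted p = 0.014), with no overlap on either day. Psat1 had 2849, 2906 and 3045 counts at day −2, 1927, 2091 and 2278 at day 1, 6677, 6631 and 7177 at day 3 and 7458, 6539 and 6979 at day 7. The ML-792 libraries lay above DMSO at day 1 and below it at days 3 and 7, where the differences were 1.48-fold (adjusted p = 0.0063) and 1.33-fold (adjusted p = 0.063). The calls of Asns at day 7 and of Psat1 at days 3 and 7 were lost without replicate A or without replicate C, and that of Psat1 at day 7 also without replicate B.

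Shmt2 ranged from 865 to 1154 counts in ML-792 at day 3, against 1414 to 2466 in DMSO, and differed by −0.85 ± 0.28 on the log2 scale (adjusted p = 0.061), a call lost without replicate A or replicate C. At day 7 its difference was −0.55 ± 0.28 (adjusted p = 0.32). Phgdh had 2, 0 and 2 reads in ML-792 at day 3 against 4, 9 and 13 in DMSO. It was called (adjusted p = 0.066), but no fold is given at such counts, and the call was lost on leaving out any of the 3 replicates.

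The summed markers of pre-adipocytes differed between the treatments on the same days. The sum mostly follows Col1a1, Col1a2 and Col3a1, whose mean counts over all libraries were 69078, 123396 and 50085.5. Dlk1 came next with 28609.5, so the sum does not describe each marker. Summed over 8 genes they had 65616 to 84166 normalised counts in ML-792 at day 3 against 42977 to 55551 in DMSO, and 75172 to 103871 against 38142 to 63806 at day 7. The 7 adipocyte markers summed to 401655 to 466854 in ML-792 and 347579 to 502566 in DMSO at day 3, which overlap, and to 912343 to 997668 and 669297 to 780912 at day 7, which do not. Their mean counts over all libraries ran from 2582 for Plin1 to 35878 for Adipoq, 80368 for Fabp4 and 127253 for Lpl. This sum therefore follows a few genes and does not describe each adipocyte marker either. The 3 muscle markers, which here were nearly all Des, summed to 20.3 to 21.7 in ML-792 and 37.2 to 55.6 in DMSO at day 3 and to 90.1 to 167 and 266 to 502 at day 7, while Myod1 and Myog never exceeded 1 and 3 reads. Those of epithelium summed to 0 to 1.19 in ML-792 and 9.03 to 10.3 in DMSO at day 7, and the leukocyte and endothelial markers overlapped between treatments on both days. The part of cell composition in the differences of the stress genes was not tested.

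Within ML-792, 7 of 10 genes fell from day −2 to day 1 (adjusted p under 0.01), against 14.2% of all genes. From day 1 to day 3, 5 of 10 rose, against 13.3% of all genes: Atf4 by 0.66, Trib3 by 1.95, Asns by 1.22, Chac1 by 2.33 and Psat1 by 1.70 on the log2 scale. At day 7, 5 of 10 were still lower than at day −2, against 20.6% of all genes. These were Atf4 (−0.79), Atf3 (−1.74), Ddit3 (−1.77), Trib3 (−1.38) and Chac1 (−1.46). Without replicate A, 4, 3 and 2 genes were called in these 3 comparisons, and without replicate C it was 5, 4 and 3. Without A, Atf4 lost its call in all 3, Asns and Psat1 in the first, Chac1 in the last 2 and Atf3 in the last. Without C, Asns and Psat1 lost it in the first, Atf4 in the second and Atf4 and Chac1 in the last. In DMSO the comparison of day 7 with day −2 gave −0.49, 0.25, −0.36, 1.41 and 0.00 for these genes, and the call there was the rise of Trib3. The ML-792 steps came from the fit of 24 libraries and the DMSO steps from the fit of 12.

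Whether the effect of ML-792 differed between days was tested with the interaction of day and treatment (3 terms, adjusted p under 0.1). It was called for 7 of 10 genes, against 11.9% of all genes: Trib3 (adjusted p = 9.3e-07), Ddit3 (5.7e-04), Psat1 (0.0019), Asns (0.0023), Atf3 (0.021), Chac1 (0.048) and Ddit4 (0.061). Atf4 had an adjusted p of 0.70, Phgdh of 0.42 and Shmt2 of 0.12. Without replicate A, B or C, 2, 8 and 1 genes were called, against 2.2%, 15.8% and 3.22% of all genes, and Trib3 was the 1 that passed in each. By step, the change from day 1 to day 3 was lower in ML-792 than in DMSO for 4 of 10 genes, against 2.06% of all genes, namely Shmt2 (−1.30 ± 0.40), Asns (−1.28 ± 0.23), Trib3 (−1.21 ± 0.29) and Psat1 (−1.06 ± 0.19). The step from day 3 to day 7 differed for Trib3 alone among the 10, by −1.33 ± 0.28 (adjusted p = 0.0090), against 2.42% of all genes. All of these steps lost their call without replicate A and without replicate C. The interaction terms and the comparisons within a day share the same libraries and are not independent of each other.

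Labelled reads, which carry at least 1 T to C conversion, were taken as a measure of RNA made during the pulse. Every library was labelled, so the share of such reads that arises without the label was not measured. This limits low labelled shares most. The labelled share of a whole library fell in DMSO from 3.17% ± 0.485 (SD, n = 3) at day −2 to 1.27% ± 0.0798 at day 1 and 1.03% at days 3 and 7, and the labelled counts were scaled by the total reads, so this shift is in every value. The median log2 fold change of labelled reads over all 6434 genes tested was −1.20, −1.64 and −1.47 at days 1, 3 and 7 against day −2. For ML-792 against DMSO it was −0.18, −0.31, −0.07 and −0.37 at days −2, 1, 3 and 7.

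Labelled reads of 8 of 9 genes fell from day −2 to day 1 in DMSO (adjusted p under 0.01), against 18.9% of all genes, and 4 of the 8, Atf3, Ddit3, Trib3 and Chac1, were still called when the labelled reads were scaled by their own library totals, where 2.95% of all genes were called lower. Normalised labelled counts of Trib3 were 232, 160.1 and 237 at day −2, 5.52, 2.73 and 3.30 at day 1, 85.4, 37.1 and 83.3 at day 3 and 221, 191 and 220.4 at day 7. Day 1 was below all other days and day 7 overlapped day −2. Relative to the median of all genes, the change at day 1 was −4.53 for Trib3, −3.83 for Ddit3, −3.26 for Chac1, −0.40 for Atf4 and 0.01 for Ddit4 on the log2 scale, and that of Ddit4 was 0.03 when scaled by the labelled reads.

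Atf3 had 245 labelled reads over the 3 DMSO libraries of day −2 and 2, 19 and 44 over those of days 1, 3 and 7. From day 1 to day 3, 3 of 9 genes rose in labelled reads in DMSO, against 1.48% of all genes: Trib3 by 4.12 ± 0.48, Psat1 by 2.39 ± 0.51 and Ddit3 by 1.66 ± 0.40 on the log2 scale. Without replicate A, B or C it was 1, 4 and 2 genes, against 0.497%, 1.79% and 0.653% of all genes, and Trib3 was called in each. When scaled by the labelled reads it was 5, against 2.39%, with Atf3 and Chac1 added. The total reads of Psat1 rose by 2.76 in this step. The labelled share of its reads was 0.79% ± 0.58 (SD, n = 3) at day 1 and 0.62% ± 0.23 at day 3. Compared with day −2, labelled reads of 6 of 9 genes were lower at day 3, against 32.3% of all genes, and 5 of 9 at day 7, against 28.1%. When scaled by the labelled reads, Ddit3 was the 1 gene called lower at each of these days, against 5.36% of all genes at day 3 and 5.32% at day 7. Under this scaling Psat1 was called higher at both days and Trib3 at day 7, against 7.13% and 6.42% of all genes.

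**Figure D3:**
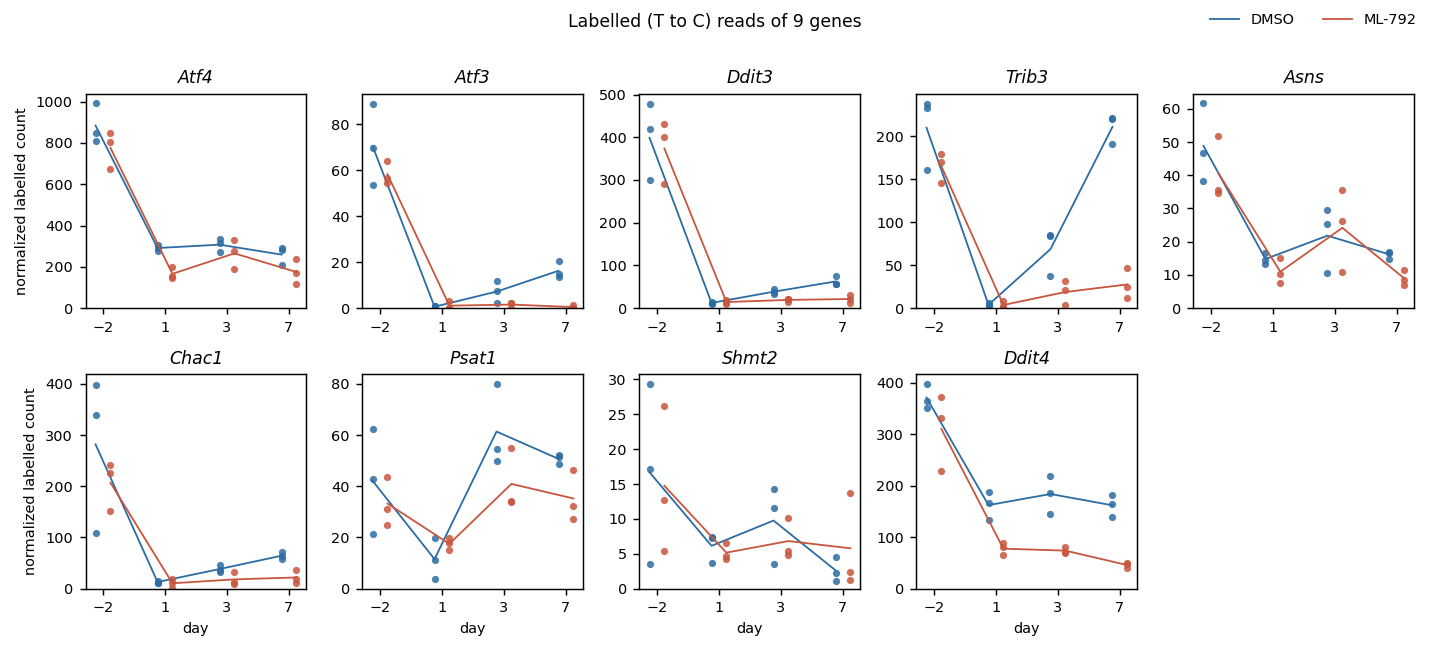
Normalised labelled counts (vertical axes, linear and starting at 0, scaled by the total reads) of 9 genes by day in DMSO (blue) and ML-792 (red), with points for libraries and lines through the means of 3. Ddit4 and Trib3 in ML-792 lie below all DMSO libraries at days 3 and 7.

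The mean labelled share of a gene's own reads in DMSO was also lower after induction than at day −2, but it did not follow the whole library at each step. It also depends on the number of T bases in the 3′UTR and is not compared between genes. In DMSO the share of Ddit4 was 17.5% ± 1.75 (SD, n = 3) before induction. It was 5.37% ± 0.904, 4.46% ± 0.707 and 5.86% ± 0.771 at days 1, 3 and 7. That of Ddit3 was 9.0% ± 1.2, 1.44% ± 0.402, 2.39% ± 0.197 and 1.83% ± 0.182 at days −2, 1, 3 and 7. For Trib3 it was 9.61% ± 0.464, 1.82% ± 0.994, 3.39% ± 1.18 and 3.66% ± 0.402. The means of both genes were higher at day 3 than at day 1, whereas the share of the whole library was lower. For Chac1 the share at day 1 was 14.4% ± 6.06, within the spread of the 18.4% ± 3.81 at day −2, on 43 labelled reads.

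Labelled reads of Ddit4 were called lower in ML-792 on 3 days. At day 1 Ddit4 was the 1 gene of 9 called lower, against 0.917% of all genes, with 87.7, 80.3 and 64.3 normalised labelled counts in ML-792 and 132, 166 and 188 in DMSO. These groups did not overlap, and the log2 fold change was −1.07 ± 0.31. The adjusted p of 0.0997 was at the threshold, and the call was lost in a fit of the 6 libraries of the day, without the filter on low counts, when scaled by the labelled reads and without any of the 3 replicates. At day 3, 2 of 9 genes were called lower, against 0.699% of all genes. Ddit4 had 71.7, 79.8 and 69.4 counts in ML-792 and 146, 219 and 186 in DMSO (log2 −1.32 ± 0.31, adjusted p = 0.023), and Trib3 had 20.7, 3.80 and 31.7 against 85.4, 37.1 and 83.3 (log2 −1.86 ± 0.49, adjusted p = 0.055). Both pairs of groups were apart, and both calls were lost without replicate A or without replicate C.

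At day 7, 4 of 9 genes were lower in labelled reads in ML-792, against 0.886% of all genes. Trib3 had 46.5, 11.6 and 24.6 counts against 221, 191 and 220.4 in DMSO (log2 −2.92 ± 0.48, adjusted p = 5.5e-04), and Ddit4 had 48.8, 39.9 and 47.8 against 164, 139.8 and 182 (log2 −1.83 ± 0.32, adjusted p = 6.2e-04). Neither overlapped between treatments. Ddit3 had 31.0, 20.6 and 12.3 counts against 57.5, 55.3 and 74.2 (log2 −1.53 ± 0.37, adjusted p = 0.026), also with no overlap. Atf3 had 1 labelled read over the 3 libraries in ML-792 and 44 in DMSO, which was called (adjusted p = 0.0050) but gives no firm fold. Without replicate A the calls of Atf3 and Ddit3 were lost, and without replicate C that of Ddit3. When scaled by the labelled reads 3 were called, against 0.513% of all genes, and Ddit3 had −1.19 ± 0.37 (adjusted p = 0.14). The interaction of day and treatment in labelled reads was called for 0 of 9 genes by edgeR, against 0.28% of all genes. At an unadjusted p under 0.05 it was 4 of the 9 (535 genes in all), and DESeq2 called 3 of the 9 (106 genes in all).

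Other genes that ATF4 is known to control were described by lists of related function. At day 3, where 6.97% of all genes were lower in ML-792 and 8.42% higher, 5 of 8 amino acid transporters were lower, led by the cystine carrier Slc7a11 (−1.94 ± 0.40), the large neutral amino acid carrier Slc7a5 (−1.88 ± 0.26) and the glycine carrier Slc6a9 (−1.40 ± 0.30). A list of 10 further enzymes covered serine, one-carbon and proline metabolism and also held Cth, which makes cysteine from cystathionine, and the alanine aminotransferase Gpt2. Of these 10, 7 were lower and 1 was higher. Those with the largest falls were Cth (−2.72 ± 0.23), Pycr1 of proline synthesis (−1.97 ± 0.36) and Gpt2 (−1.65 ± 0.21). The medians of the transporters and of the enzymes were −1.13 and −1.16, against 0.02 over all genes. At day 7 it was 6 of 8 transporters and 7 of 10 enzymes against 5.58% of all genes, with medians of −0.87 and −0.63 against 0.00, and the mitochondrial folate enzymes Aldh1l2 (−1.90 ± 0.19) and Mthfd1l (−1.70 ± 0.33) led the second list. Without replicate A, B or C, the transporters called at day 7 numbered 1, 7 and 0, and the enzymes 3, 7 and 3. The shares of all genes called lower in these fits were 1.73%, 6.81% and 1.73%.

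The tRNA synthetases, which charge tRNAs with their amino acids, were described in 2 lists. Of the 12 known as ATF4 targets, 7 were lower in ML-792 at day 3 (6.97% of all genes), among them Nars (−0.81 ± 0.24), Tars (−0.81 ± 0.20) and Aars (−0.77 ± 0.15), and 6 at day 7 (5.58%), among them Sars (−0.91 ± 0.26), Wars (−0.88 ± 0.14) and Gars (−0.72 ± 0.19). Of the 8 other cytosolic synthetases, 0 were called at day 3 by edgeR, 0 had an unadjusted p under 0.05 and DESeq2 called 0, with log2 fold changes between −0.23 and 0.31. At day 7 the 1 called was Vars (−0.44 ± 0.16, adjusted p = 0.099). The medians were −0.58 and 0.04 at day 3 and −0.57 and −0.02 at day 7. Without replicate A, B or C the calls of the first list numbered 0, 10 and 2 at day 3 and 1, 8 and 1 at day 7. In the same fits 2.44%, 8.59% and 3.27% of all genes were called lower at day 3, and 1.73%, 6.81% and 1.73% at day 7. The difference between the lists was not tested.

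**Figure D4:**
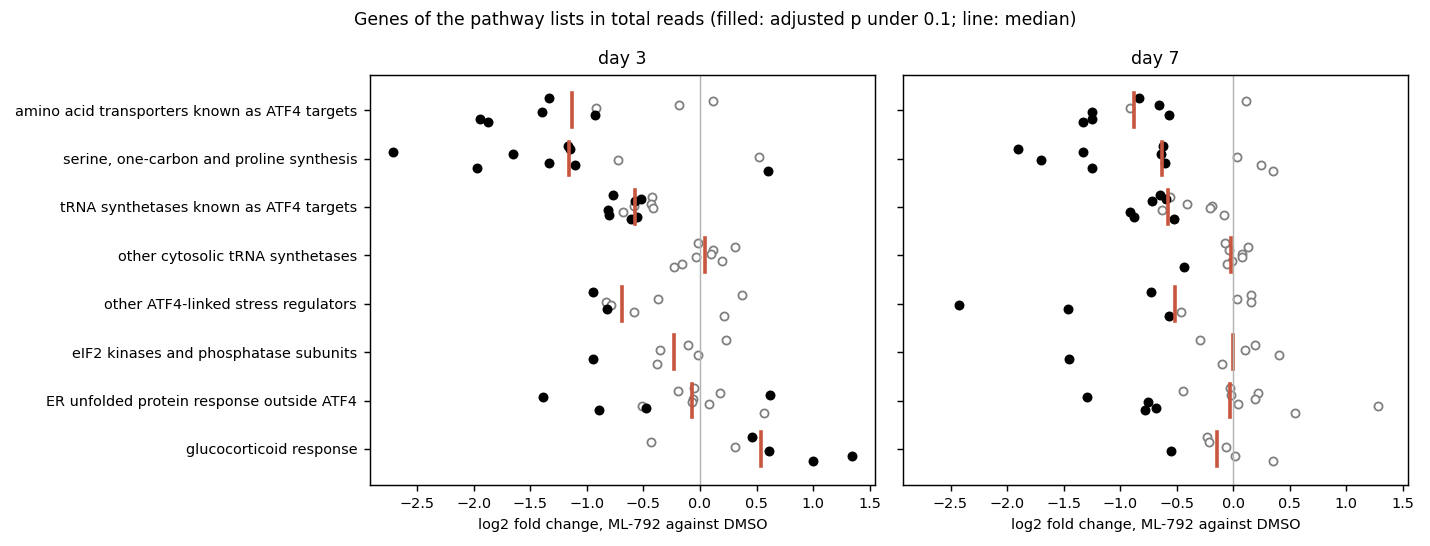
Log2 fold change of ML-792 against DMSO in total reads (horizontal axes) for the genes of 8 pathway lists at days 3 and 7. Each point is a gene, filled at an adjusted p under 0.1 by edgeR, and the red line is the median of the list, which is −1.13 for the transporters and 0.04 for the other cytosolic tRNA synthetases at day 3.

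The same lists were compared between days in DMSO. At day 1, 5 of 8 transporters, 5 of 10 enzymes and 5 of 12 ATF4-target synthetases were below day −2, against 9.86% of all genes, with Slc6a9 (−3.77 ± 0.38), Slc7a11 (−3.43 ± 0.46), Aldh1l2 (−3.46 ± 0.20) and Aars (−1.61 ± 0.16) among them. From day 1 to day 3, 5 of 8, 6 of 10 and 10 of 12 rose, against 11.3% of all genes, among them Slc7a11 (3.76 ± 0.46), Psph of serine synthesis (2.86 ± 0.29) and Cars (1.97 ± 0.25). The 8 other synthetases had log2 fold changes of 0.23 to 0.63 at day 1, where edgeR and DESeq2 called 0 of them and 2 had an unadjusted p under 0.05. From day 1 to day 3 the 1 called was Vars (0.71 ± 0.18). The counts of the ATF4-target synthetases again depended on the replicates, with 1, 8 and 1 at day 1 and 3, 12 and 6 from day 1 to day 3 without A, B or C. Of all genes, 2.55%, 13.1% and 4.17% were then called lower at day 1, and 4.23%, 14.4% and 5.48% rose from day 1 to day 3.

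The genes of these pathways did not all move alike. At day 1, Cth was already lower in ML-792 (−2.64 ± 0.24, adjusted p = 1.1e-07) while Aldh1l2 (0.97 ± 0.19) and Gpt2 (0.74 ± 0.21) were higher. Of the 6 eIF2 kinases and phosphatase subunits, Ppp1r15a, the stress-induced subunit of the eIF2 phosphatase, was the 1 called, by −0.94 ± 0.29 at day 3 and −1.45 ± 0.30 at day 7. The shares of all genes called lower were 6.97% and 5.58%. Of 8 other ATF4-linked regulators tested, 2 were lower at day 3 (Atf5 by −0.94 ± 0.23 and Nupr1 by −0.82 ± 0.30) and 4 at day 7, where the stress hormone Gdf15 led (−2.42 ± 0.41), against 6.97% and 5.58% of all genes.

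Of 12 genes of the endoplasmic reticulum stress response that are controlled mainly outside ATF4, 3 were lower and 1 was higher at day 3 (6.97% and 8.42% of all genes) and 4 were lower at day 7 (5.58%). Herpud1, which takes part in the degradation of proteins of the endoplasmic reticulum and is also known as an ATF4 target, led on both days (−1.39 ± 0.15 and −1.30 ± 0.15), followed by Sel1l of the same degradation pathway (−0.89 ± 0.13 and −0.78 ± 0.13). The chaperone Hspa5 was lower at day 7 (−0.76 ± 0.19) and Edem1 was higher at day 3 (0.62 ± 0.15). The medians of the list were −0.07 and −0.02. Of 6 glucocorticoid-responsive genes, 4 were higher in ML-792 at day 3, against 8.42% of all genes, led by Tsc22d3 (1.34 ± 0.19) and Zbtb16 (1.00 ± 0.24). At day 7 the 1 called was Sgk1, lower by −0.55 ± 0.18.

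The courses of the 10 genes across the 24 libraries were set side by side by Pearson's r of log2 normalised total counts, as a description, since libraries of a condition share their treatment and day. The highest were 0.95 for Atf3 and Ddit3 and 0.94 for Chac1 and Trib3, and the other 4 pairs among these genes lay between 0.83 and 0.89. Asns and Psat1 had 0.87, and Asns and Trib3 0.65. Ddit4 had r of 0.02 with Trib3 and 0.01 with Psat1, and its highest was 0.54, with Shmt2. Among the other genes tested, those nearest to Trib3 were Herpud1 (0.975), Sgpl1 (0.954) and Chac1 (0.940). Those nearest to Atf4 were the amino acid transporter Slc7a1 (0.871), Cdk6 (0.870) and Sh3bp4 (0.869), and those nearest to Phgdh, on its few reads, were Gm11744 (0.842), Hebp1 (0.840) and Stx2 (0.836).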

How the data were processed

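Each of the 24 libraries of 3T3-L1 cells gave QuantSeq and SLAMseq values. The authors demultiplexed with bcl2fastq 2.17.1.14 and mapped with SlamDunk to mm10, and they deposited raw counts of total reads and of labelled reads (at least 1 T to C conversion) for 91830 RefSeq 3′UTR entries. The deposited tables also give each entry's length and T content, which are other quantities than counts. Both tables also hold library columns that matched no sample (6 in each), which were not used. Libraries were grouped by their titles. The methods name 3 biological replicates per condition, but nothing says how they were grown, so p-values measure the spread between these samples.

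Counts were fitted with edgeR 4.0.16 (limma 3.58.1 and R 4.3.3, with the package data.table in version 1.17.8) by robust quasi-likelihood, after filterByExpr (minimum count 10, minimum total 15) and TMM. A total of 26563 entries passed in total and 10589 in labelled reads. Labelled counts took the library sizes and factors of the total counts. Days in DMSO were compared in 12 libraries, and days in ML-792, ML-792 with DMSO and the interaction in all 24, with Benjamini-Hochberg adjustment over all entries. Calls needed an adjusted p under 0.01 for days and under 0.1 otherwise. Shares of all genes use 1 entry per gene. Counts were normalised to the mean effective library size (library size times TMM factor). A floor of 3 counts was set but entered no fit or test. The log2 values used for correlations had a prior count of 2 added. Fits were tested on simulated counts drawn with edgeR's own estimates of the spread. The simulated libraries were independent, so this does not test the likeness of libraries of the same letter.

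The 10 genes, the pathway lists and the tests were chosen with earlier results of these data known. Named besides the 10 genes were up to 3 called genes per list and comparison, by size of change, and the 3 genes most like Atf4, Trib3 and Phgdh. Alternatives were DESeq2 1.42.0, no filter, 1 entry per gene, another set of libraries in the fit, the replicate letter as a block, scaling by the labelled reads and each letter left out. For adjacent days, days within ML-792, labelled shares and lists they were chosen after seeing the data. Promoters and 3′UTRs were read from RefSeq windows and the genome of GRCm38.p6, whose chromosomes are those of mm10.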

Additional observations from a re-analysis of the deposited data

Results flagged for a closer look

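The effect of ML-792 differed between days, by the interaction test in total reads (edgeR, 3 terms), for Atf3 (adjusted p = 0.021), Ddit3 (5.7e-04), Trib3 (9.3e-07), Asns (0.0023), Chac1 (0.048), Psat1 (0.0019) and Ddit4 (0.061). The step from day 1 to day 3 differed between treatments by −1.21 for Trib3, −1.28 for Asns, −1.06 for Psat1 and −1.30 for Shmt2 on the log2 scale. The step from day 3 to day 7 differed by −1.33 for Trib3. No explanation was tested.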

How the results depend on the processing

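Of the 46 called values of single genes in total reads (days in DMSO, ML-792 against DMSO, and the interaction by step), all kept their call and direction under DESeq2, with 1 entry per gene and with the replicate block, as did the calls in 3 comparisons of days within ML-792. The count of genes lower at day 3 than at day −2 in DMSO was 1 and became 2 with 1 entry per gene, with DESeq2, in a fit of all 24 libraries, without the filter on low counts and with the replicate block. The share of all genes called lower there was 19.4% in the main fit and is not given for these settings. In the step from day 3 to day 7 in DMSO 2 genes fell, in place of 1, with DESeq2 and with the replicate block, against 6.72% and 7.64% of all genes. Psat1 at day 1 in ML-792 left 0 calls in the fit of the 6 libraries and without the filter. Libraries of the same letter were more alike than those of different letters, and the main fit did not use the letter. The mean correlation of deviations from the condition mean was 0.19 in total and 0.07 in labelled reads for same-letter pairs. For different letters it was −0.09 and −0.04. The deviations of the 3 libraries of a condition sum to 0, so positive values within letters force negative ones between letters. The pairs of different letters are therefore not an independent comparison. In total reads 68 of 84 same-letter pairs were over 0.1, against 20 of 168 pairs of different letters. With the replicate block 10 genes in place of 9 were lower in ML-792 at day 3 and 9 in place of 7 at day 7, Atf4 among them (−0.38 ± 0.12, adjusted p = 0.028, and −0.40 ± 0.12, adjusted p = 0.024). The share of all genes called lower also rose with the block, from 6.97% to 11.7% at day 3 and from 5.58% to 11.6% at day 7. The block also gave 8 genes in place of 4 with a lower step from day 1 to day 3 in ML-792, 1 in place of 0 with a higher step from day 3 to day 7, 1 in place of 0 lower in ML-792 at day 1 and 1 in place of 0 lower at day 7 than at day −2 in DMSO. The shares of all genes in these comparisons with the block are not given, so the added calls are not read as particular to the 10 genes. The interaction of 3 terms was called for 25.2% of all genes with the block and for 11.9% without it.

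In labelled reads, scaling by the labelled reads left 4 of 8 falls at day 1, 1 of 6 at day 3 and 1 of 5 at day 7 in DMSO. The shares of all genes called lower were then 2.95%, 5.36% and 5.32%. This scaling added 1 rise at day 3 and 2 at day 7, against 7.13% and 6.42% of all genes. Ddit4 turned from −1.19, −1.01 and −1.20 to 0.03, 0.50 and 0.19 at days 1, 3 and 7. Ddit4, the 1 gene lower in ML-792 at day 1, became 2 genes with DESeq2 and with the replicate block and 0 in the fit of the 6 libraries, without the filter and when scaled by the labelled reads. The interaction in labelled reads, called for 0 genes, was called for 3 with DESeq2 and with the replicate block and for 1 without the filter and when scaled by the labelled reads. In that order it was called for 1.65%, 1.29%, 0.187% and 0.389% of all genes. The rises from day 1 to day 3 in DMSO numbered 5 in place of 3 when scaled by the labelled reads and with the replicate block, against 2.39% and 1.85% of all genes. The cause of these changes was not tested.

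Leaving out one replicate letter gave, in total reads, 4 to 7 falls at day 1 in DMSO, 1 to 2 at day 3, 4 to 8 rises from day 1 to day 3, and 0 to 3 rises and 0 to 2 falls from day 3 to day 7. For ML-792 it gave 0 to 1 genes higher and 0 to 1 lower at day 1, 5 to 8 lower at day 3, 4 to 6 at day 7, 1 to 8 with the interaction, 0 to 5 with a lower step from day 1 to day 3, and 0 to 1 with a lower and 0 to 1 with a higher step from day 3 to day 7. Within ML-792 it gave 4 to 7 falls at day 1, 3 to 5 rises from day 1 to day 3 and 2 to 6 genes lower at day 7 than at day −2. In labelled reads it gave 4 to 6 falls at day 1, 3 to 5 at day 7 and 1 to 4 rises from day 1 to day 3 in DMSO, and 0 genes at day 1, 0 to 2 at day 3 and 2 to 4 at day 7 lower in ML-792. Fits without a letter hold 2 libraries per condition.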
